A study of Rattus norvegicus with 12 samples.

Results

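The R-spondin, Wnt and crypt stem cell genes were measured in the colon of rats after neonatal maternal separation (NMS) and after a probiotic. The group was made of 10 gene symbols, and all probes of the arrays with one of these names were taken, so that 9 symbols with 10 probes were found among 30367 gene probes with 26514 different names. The 9 genes were the ligands Rspo1, Rspo2, Rspo3 and Wnt5a, the receptor Lgr5, the transcription factor Ascl2, the feedback inhibitor Axin2, the secreted inhibitor Sfrp1 and the Ephrin receptor Ephb2. No probe carried the name Znrf3. The members were chosen by their place in the pathway after Rspo1 had been seen to stand lower in Group M than in Group C on these arrays, and for that reason all values of the members in Group M vs Group C are a description, without a test. The comparisons of Group D with Group M and Group C share those rats and are not independent of that choice.

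Colon of 12 male Wistar rats was hybridised, 1 array of 1 colour (Cy3) per rat, and every animal had undergone colorectal distension before its colon was collected on day 60. Group C (C1 to C4) was not separated and received placebo, Group M (M5 to M8) was kept away from the mother for 180 min a day between day 2 and day 14, also with placebo, and Group D (D9 to D12) had the same separation with VSL#3, a mixture of live probiotic bacteria. Gavage was given daily from day 3 to day 60 in 100 µL saline in all groups, and the labels and the study's methods give slightly different doses of VSL#3. D12 is absent from the heat maps of the study without a stated reason, so the 11 other arrays were the main data, and values of D12 are given beside them. Colon tissue is a mixture of cell types, and neither the cell of origin nor protein was measured.

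Wnt ligands bind Frizzled and LRP receptors and keep β-catenin from being degraded, and β-catenin with TCF factors then switches on target genes. In the colon this signal maintains the stem cells at the crypt base. R-spondins, secreted mainly by stromal cells below the crypt, bind Lgr receptors and remove the ubiquitin ligases Znrf3 and Rnf43 from the membrane, which leaves more Wnt receptors on the cell and strengthens the signal.

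The identity of a probe decides what its signal reports. The probes of 3 genes are shown, those of the ligand with the largest difference between Groups C and M, of a related ligand and of a common readout of β-catenin, and each reads without a stop codon in 2 of its 3 frames. Probes are placed on the rn4 build, as the array files give them. The Rspo1 probe lies at chr5:144352967-144353026 on the plus strand, the Rspo3 probe at chr1:29108556-29108615 on the plus strand and the Axin2 probe at chr10:98321105-98321164 on the plus strand. They are written from 5′ to 3′.
Rspo1: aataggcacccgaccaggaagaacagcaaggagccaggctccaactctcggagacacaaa
Rspo3: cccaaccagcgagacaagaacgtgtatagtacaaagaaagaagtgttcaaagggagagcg
Axin2: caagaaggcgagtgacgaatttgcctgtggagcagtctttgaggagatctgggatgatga
The longest run of letters that any pair of the 3 R-spondin probes shares is 6 of 60 bases. The other probes were A_64_P082919 for Rspo2, A_64_P003572 and A_64_P102796 for Lgr5, A_64_P023250 for Ascl2, A_44_P481160 for Wnt5a, A_64_P072953 for Sfrp1 and A_64_P030373 for Ephb2.

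All levels are log2 signals relative to the 75th percentile of the array, so that 0 equals that percentile and 1 unit is a 2-fold change. On each array 75.5% to 77.5% of the spots other than controls were well above background. The 12 epithelial markers had a summed signal of 328 to 502 times the 75th percentile, so that epithelium was present in every sample. Before the results it has to be said that 3 rats stood apart from their groups. The leukocyte markers, 8 of 9 genes on the arrays, summed to 12.9 to 13.6 in C1, C3 and C4 but to 42.8 in C2, to 44.5 to 56.8 in M5, M7 and M8 but to 13.5 in M6, and to 9.83 to 14.8 in D9 to D11 but to 50.5 in D12. All 8 leukocyte markers were well above background in every rat. Groups C and M were hybridised on one slide and Group D on another, so slide and group cannot be told apart for Group D. On the slide of Groups C and M, Group C lay in array row 1 and Group M in array row 2. Row and group therefore cannot be told apart in Group M vs Group C.

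Rspo1 was lower in both groups of separated rats than in the controls. Its signal in Group C was -4.76 (C1), -4.85 (C2), -4.88 (C3) and -5.05 (C4). The rats of Group M had -6.15 (M5), -6.02 (M6), -6.62 (M7) and -5.67 (M8). Those of Group D had -5.23 (D9), -5.60 (D10), -5.63 (D11) and -6.05 (D12). Among the 11 arrays the groups did not overlap, with Group C highest, Group D between and Group M lowest, whereas D12 lay inside the range of Group M. The mean was -4.89 ± 0.12 (SD, n = 4) in Group C, -6.11 ± 0.39 (SD, n = 4) in Group M and -5.49 ± 0.22 (SD, n = 3) in Group D. Group M was thus 1.23 lower than Group C, a 2.34-fold difference, and this is the difference for which the gene was noticed. The Rspo1 signal was dim, though well above background in every rat, and the size of the difference depended on the background handling. With normexp background correction Group M minus Group C was -0.51. In bulk tissue a lower signal cannot be told apart as fewer cells with Rspo1 or less RNA per cell.

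Rspo1 was higher in Group D than in Group M by 0.63 on the log2 scale (SE 0.20, 95% confidence interval 0.18 to 1.08), which did not pass limma's test (adjusted p = 0.131). With D12 the difference was 0.49 (adjusted p = 0.388). Against Group C, Group D was lower by 0.60 (SE 0.20, interval -1.05 to -0.15, adjusted p = 0.723), and with D12 by 0.74 (adjusted p = 0.503). The 2 spots of the probe on one array differed by a median of 0.32 and at most 0.73, beside the differences of 1.23 between Groups C and M and 0.63 between Groups D and M. The lack of overlap between D9 to D11 and Group M was narrow. D11 at -5.63 and M8 at -5.67 lay closer together than that median.

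**Figure D1:**
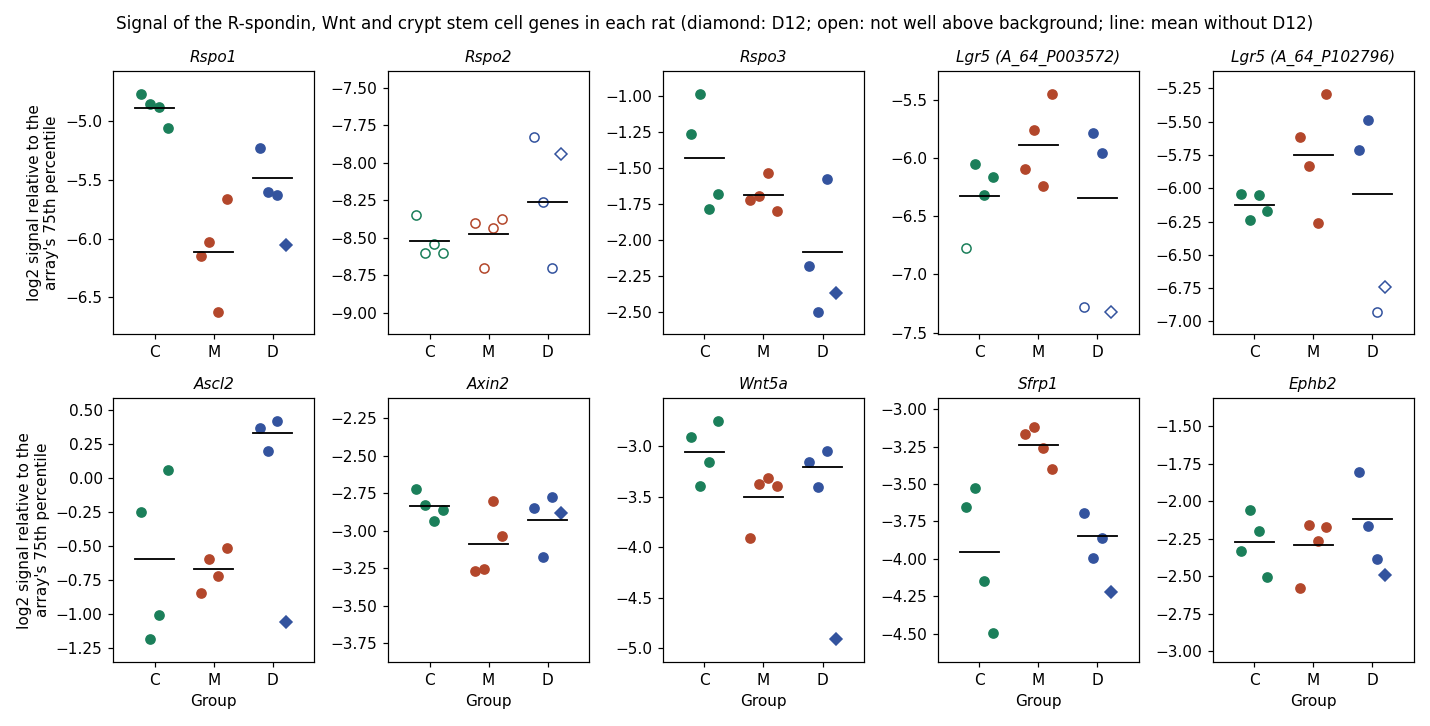
Log2 signal relative to the 75th percentile of the array (vertical axis, a separate scale in each panel) of the 10 probes in each rat, by group on the horizontal axis. Points are rats, the diamond is D12, open symbols are not well above background, and the line is the mean without D12. Rspo1 showed no overlap of the 11 arrays between groups, and Rspo2 was open in all 12 rats.

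Rspo3, the R-spondin produced by stromal cells beneath the crypt, showed another order of groups. It was -1.26, -0.98, -1.78 and -1.68 in C1 to C4, -1.72, -1.69, -1.53 and -1.80 in M5 to M8, and -2.18, -2.50 and -1.57 in D9 to D11, with -2.37 in D12. Every pair of groups overlapped, but D9, D10 and D12 were below all rats of Groups C and M. Group M minus Group C was -0.26, Group D minus Group M was -0.40 (SE 0.24, adjusted p = 0.360), and Group D minus Group C was -0.66 (SE 0.24, adjusted p = 0.761). Rspo2 was not well above background in any rat, its signals ran from -8.70 to -7.83, and no fold is given.

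Lgr5, the R-spondin receptor that marks crypt base stem cells, gave a dim signal with both probes. Probe A_64_P003572 (chr7:54737891-54737950, minus strand) gave -6.77, -6.05, -6.32 and -6.16 in Group C, -6.10, -5.75, -6.23 and -5.44 in Group M and -7.28, -5.78, -5.96 and -7.32 in D9 to D12. It was not well above background in C1, D9 and D12. Probe A_64_P102796 (chr7:54738144-54738203, minus strand) gave -6.04, -6.24, -6.05 and -6.17 in Group C, -5.62, -5.83, -6.26 and -5.29 in Group M and -5.71, -5.49, -6.93 and -6.74 in D9 to D12. It was not well above background in D11 and D12. Both probes were thus highest in M8 and had low values in D12, but they disagreed on D9 and D11, which each probe placed on opposite sides. The mean difference between Groups M and C was 0.44 and 0.38 by the 2 probes, but 0.0787 and 0.0274 with normexp background correction, and 0.84 by the first probe with array weights. Between Groups D and M it was -0.46 (SE 0.35, interval -1.23 to 0.32, adjusted p = 0.485) and -0.29 (SE 0.32, interval -1.01 to 0.43, adjusted p = 0.650), or -0.70 and -0.47 with D12. For Groups D and C the 2 probes gave -0.01 (SE 0.35, interval -0.79 to 0.76) and 0.09 (SE 0.32, interval -0.63 to 0.80), opposite in sign and both small against their errors, or -0.26 and -0.09 with D12. The ligase Znrf3, which R-spondins remove from the membrane, had no probe of its name. A probe described as zinc and ring finger 3 under a transcript identifier, outside the rule, ran from -6.72 in C2, where it was not well above background, to -5.51 in D11, with the 3 groups overlapping.

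Wnt5a, a ligand that signals largely without β-catenin, was -2.91, -3.39, -3.16 and -2.75 in C1 to C4, -3.91, -3.37, -3.32 and -3.40 in M5 to M8, and -3.15, -3.40 and -3.05 in D9 to D11. D12 had -4.91, the lowest of the 12 rats. The mean of Group M was 0.45 lower than that of Group C, with an overlap of C2. Group D minus Group M was 0.30 (SE 0.19, adjusted p = 0.390), and with D12 the sign turned, at -0.13 (adjusted p = 0.921). Group D minus Group C was -0.15 (SE 0.19, adjusted p = 0.997), or -0.57 with D12 (adjusted p = 0.826).

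Sfrp1, a secreted protein that binds Wnt ligands and blocks them, ran opposite to Rspo1 between Groups C and M. It was -3.65, -3.53, -4.14 and -4.50 in C1 to C4, -3.17, -3.12, -3.26 and -3.40 in M5 to M8, and -3.69, -3.99 and -3.86 in D9 to D11, with -4.22 in D12. All 4 rats of Group M were above all other rats, D12 included, while the ranges of Groups C and D overlapped. The mean of Group M was 0.72 higher than that of Group C. Group D was lower than Group M by 0.61 (SE 0.21, interval -1.08 to -0.14), which did not pass (adjusted p = 0.149), and with D12 by 0.70 (adjusted p = 0.233). The difference between Groups D and C was 0.11 (SE 0.21, interval -0.37 to 0.58, adjusted p = 0.999), or 0.01 with D12.

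Ascl2, the transcription factor that sets the stem cell state of the crypt and is itself a Wnt target, was highest in 3 of the 4 rats given VSL#3. It was -0.25, -1.19, -1.01 and 0.06 in C1 to C4, -0.85, -0.59, -0.72 and -0.52 in M5 to M8, and 0.37, 0.20 and 0.42 in D9 to D11, whereas D12 had -1.06. D9 to D11 were above all 8 rats of Groups C and M, and D12 was below all of Group M. The means were -0.60 ± 0.60 (SD, n = 4) in Group C, -0.67 ± 0.15 (SD, n = 4) in Group M and 0.33 ± 0.11 (SD, n = 3) in Group D. Without D12, Group D was higher than Group M by 1.0 (2.0-fold, SE 0.27, interval 0.40 to 1.60, adjusted p = 0.101) and than Group C by 0.93 (SE 0.27, interval 0.33 to 1.52, adjusted p = 0.653). With D12 these differences were 0.65 (adjusted p = 0.481) and 0.58 (adjusted p = 0.822). Without M6 the difference in Group D vs Group M was 1.02 and passed limma's test (adjusted p = 0.0494), where 15% of all probes passed. It also passed without C2, M6 and D12 (1.02, adjusted p = 0.0263) and with array weights (0.92, adjusted p = 0.0192), where 17.5% and 22.6% of all probes passed.

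Axin2 and Ephb2, both readouts of β-catenin signalling in the crypt, had small mean differences between the groups, with overlapping ranges. Axin2, which limits the signal that induces it, was -2.93 to -2.72 in Group C, -3.27 to -2.80 in Group M and -3.17 to -2.78 in D9 to D11, with -2.88 in D12. Group D minus Group M was 0.16 (SE 0.14, interval -0.16 to 0.47, adjusted p = 0.562) and Group D minus Group C was -0.10 (SE 0.14, interval -0.41 to 0.22, adjusted p = 0.999), so that any difference of more than 0.47 on the log2 scale lay outside both intervals. Group M minus Group C was -0.25, and M5 (-3.27), M6 (-3.25) and M8 (-3.04) were below all rats of Group C. Ephb2, a receptor that positions cells along the crypt, was -2.51 to -2.06 in Group C, -2.58 to -2.16 in Group M and -2.38 to -1.81 in D9 to D11, with -2.49 in D12. Its differences were -0.02 in Group M vs Group C, 0.18 (SE 0.17, interval -0.20 to 0.55, adjusted p = 0.586) in Group D vs Group M and 0.16 (SE 0.17, interval -0.22 to 0.53, adjusted p = 0.991) in Group D vs Group C, and the latter 2 were 0.08 and 0.06 with D12.

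**Figure D2:**
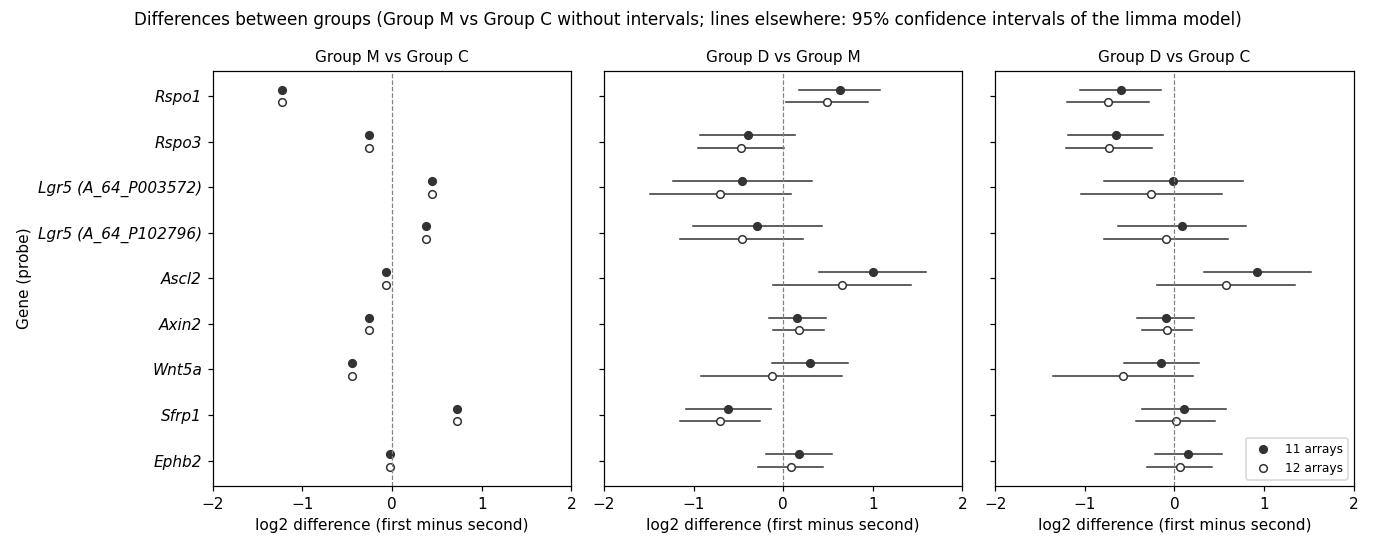
Log2 difference between groups (horizontal axis, first group minus second) for the 9 probes above background in any rat, with 11 arrays (filled) and with D12 added (open). Lines are 95% confidence intervals of the limma model and are left out in Group M vs Group C, where the values are a description. The points of Rspo1 and Ascl2 lay at 0.63 and 1.0, and that of Sfrp1 at -0.61, in Group D vs Group M, where that of Wnt5a crossed 0 when D12 was added.

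In Group D vs Group M the limma test called 0 of 10 member probes (adjusted p not above 0.05), where 0.161% of all probes were called with 11 arrays and 0.0132% with 12. It called 0 of 10 as well in Group D vs Group C, where 0.00659% of all probes were called with 11 and also with 12 arrays. At an unadjusted p of at most 0.05 there were 3 probes in each of these comparisons, where 21.6% and 5.98% of all probes passed. By the criterion of the study's methods, an analysis of variance with a Tukey test and a 2-fold change, the counts were 1 (Ascl2) in Group D vs Group M and 0 in Group D vs Group C, where 2.65% and 0.366% of all probes passed, and 0 in both with D12. Ascl2 stood at the fold threshold itself, at 2.00002-fold. Its log2 difference in Group D vs Group M ran from 0.94 to 1.06 with single rats left out. Calls are not counted here for Group M vs Group C, since the values of that comparison led to the choice of the members.

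On the 11 arrays, groups did not overlap for 3 of 10 probes in Group D vs Group M (Rspo1 and Ascl2 higher, Sfrp1 lower), where 16% of all probes did not overlap. This held for 2 of 10 in Group D vs Group C (Ascl2 higher, Rspo1 lower), where 7.6% did not overlap. With D12 it held for 1 of 10 in each, Sfrp1 lower in Group D vs Group M and Rspo1 lower in Group D vs Group C, where 5.01% and 4.3% of all probes did not overlap. As a description, Rspo1 (lower) and Sfrp1 (higher) were the 2 of 10 without overlap in Group M vs Group C, beside 9.25% of all probes. The median difference of the 10 probes was -0.05 in Group M vs Group C, 0.17 in Group D vs Group M and 0.04 in Group D vs Group C, beside -0.01, 0.02 and 0.00 over all probes. With D12 the signs of both Group D medians turned, to -0.02 and -0.09.

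The leukocyte markers moved with the groups, and the members are therefore described in the 3 rats that stood apart. Rspo1 in C2, at 42.8 for the summed leukocyte markers, was -4.85 and inside the range of the other Group C rats, and in M6, at 13.5, it was -6.02 and inside the range of the other Group M rats. D12, at 50.5, had an Rspo1 of -6.05, the lowest of Group D and inside the range of Group M. Without C2, M6 and D12 the difference between Groups M and C was -1.25, as large as with C2 and M6, and that between Groups D and M was 0.66 (adjusted p = 0.0927). Sfrp1 in M6 was -3.12, the highest of Group M, and its differences without the 3 rats were 0.82 between Groups M and C and -0.57 between Groups D and M (adjusted p = 0.0932). Ascl2 in C2 was -1.19 and in D12 -1.06, the lowest of their groups, whereas M6 was inside the range of Group M. The proliferation markers, 8 of 9 genes on the arrays, summed to 2.19 to 3.39 in Group C, 2.45 to 9.16 in Group M and 2.17 to 2.61 in D9 to D11, with 6.85 in D12. The colonocyte markers, all 8 measured, summed to 65.1 to 140.6 in Group C, 79.1 to 117.7 in Group M and 95.9 to 158.5 in D9 to D11, with 55.3 in D12. Markers of crypt niche fibroblasts, 7 of 8 genes, summed to 10.1 to 14.7 in Group C, 12.6 to 18.7 in Group M and 10.9 to 14.7 in D9 to D11. No gene of these lists was called in any comparison by limma, and their part in the values of Ascl2 was not tested.

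**Figure D3:**
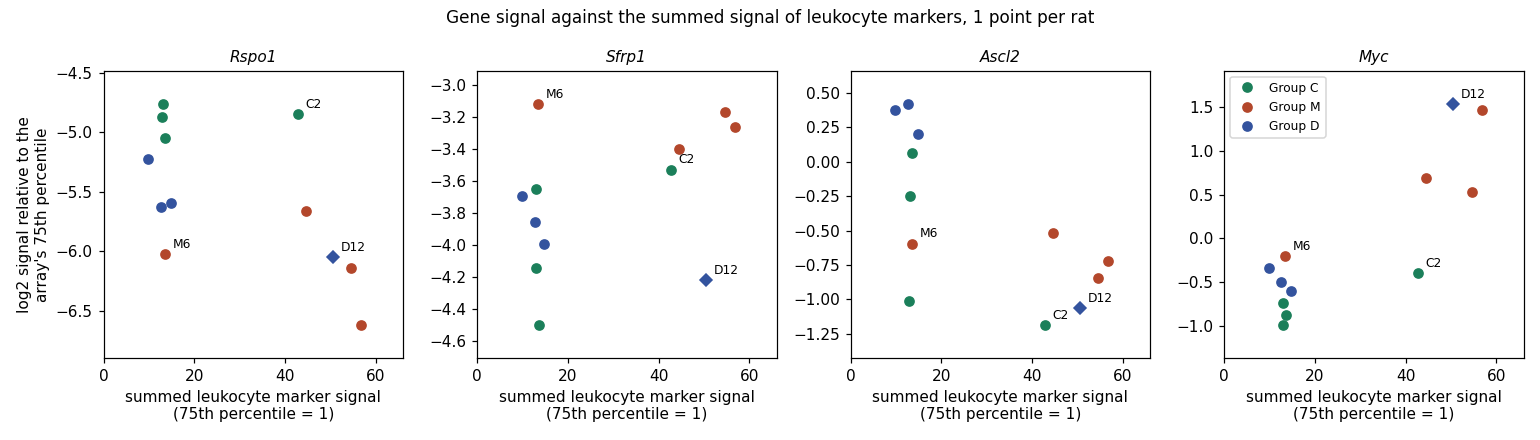
Log2 signal relative to the 75th percentile of the array (vertical axis) of 4 genes against the summed signal of 8 leukocyte markers in the same rat (horizontal axis, the 75th percentile of the array being 1), 1 point per rat, coloured by group. C2, M6 and D12 are named. For Rspo1, C2 lay with Group C, while M6 and also D12 lay with Group M, and for Myc, a Wnt target outside the member list, D12 at 1.54 lay above all rats of Group M.

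The wider Wnt pathway was followed by a list of other genes, 93 of which had a probe of their name. Of these, 72 were well above background on all 11 arrays and 10 on none. The 93 genes include 11 BMP ligands, receptors and antagonists, which belong to another pathway. This list, too, was chosen with earlier results of these data known. Its counts and adjusted p-values are therefore a description and not an independent test. By limma 0 of 93 were called in each of the 3 comparisons, with 11 as with 12 arrays, where 0.207% and 0.0395% of all probes were called in Group M vs Group C and the shares given above in the others. At an unadjusted p of at most 0.05 there were 22 (23.7%), 28 (30.1%) and 6 (6.45%) genes in Group M vs Group C, Group D vs Group M and Group D vs Group C, beside 22.7%, 21.6% and 5.98% of all probes. The BMP class had 6 of 11 (54.5%) in Group M vs Group C and again in Group D vs Group M. In Group D vs Group C it had 0. With 0.01 in place of 0.05 there were 10 (10.8%), 10 (10.8%) and 1 (1.08%) of the 93, beside 8.01%, 7.82% and 1.4% of all probes. The criterion of the methods was met by 3 (3.23%), 2 (2.15%) and 0 genes, beside 2.33%, 2.65% and 0.366%. Groups did not overlap for 16 genes (17.2%) in Group M vs Group C, 5 higher and 11 lower, where 4.08% of all probes were higher and 5.17% lower without overlap. Among these were Wnt10a (higher) and Tnfrsf19 (lower), which were not well above background on any of the 11 arrays. The rats did not overlap for 25 genes (26.9%) in Group D vs Group M, 19 higher and 6 lower, where 9.07% of all probes were higher and 6.89% lower. This held for 8 genes (8.6%) in Group D vs Group C, 6 higher and 2 lower, where 3.82% and 3.78% of all probes did so. With D12 it held for 5 genes (5.38%) in each comparison of Group D, where 5.01% and 4.3% of all probes did not overlap. Of these 5 genes, 3 were higher and 2 lower in each comparison. The median difference of the list was -0.03, 0.09 and 0.05 in the 3 comparisons, and 0.06 and -0.02 in those of Group D with D12.

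The class of Wnt ligands held 17 of these genes, counting Porcn, which is not a ligand itself. In Group D vs Group M 5 (29.4%) did not overlap, all higher, beside 26.9% of the list and 16% of all probes. Over the 9 classes of the list this share ran from 0% to 40%. Wnt2b, a ligand of the crypt stroma, was -1.69, -1.96, -1.86 and -1.66 in C1 to C4, -2.30, -2.08, -2.94 and -2.37 in M5 to M8, and -1.88, -1.90 and -2.01 in D9 to D11, with -2.77 in D12. All 4 rats of Group M were below the rats of Group C and below D9 to D11, and D12 was inside the range of Group M. The difference was -0.63 (SE 0.17, adjusted p = 0.105) in Group M vs Group C and 0.49 (SE 0.18, adjusted p = 0.159) in Group D vs Group M, or 0.28 with D12 (adjusted p = 0.628). Wnt4, another ligand, ran from -2.58 to -1.98 with differences of 0.15 and -0.26 in the same comparisons (adjusted p = 0.502 and 0.269). The widest difference of the list in Group D vs Group M was that of Wnt16, a ligand named here after its value was seen. It was 1.65 (SE 0.60, adjusted p = 0.158), or 1.27 with D12 (adjusted p = 0.431).

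Among receptors, Lgr4, the Lgr receptor found throughout the crypt, was 0.76 to 1.46 in Group C, 0.84 to 1.33 in Group M and 0.93 to 1.14 in D9 to D11, and -0.04 in D12, the lowest of the 12 rats. Rnf43, the second ligase removed by R-spondins, ran from -4.67 to -3.88 in the 12 rats, and Group D minus Group M was 0.04 (SE 0.20, adjusted p = 0.932), or -0.05 with D12. Rspo4 was well above background in M5 alone, at -5.75. Lgr6 and Fzd7 had no probe of their name. Fzd5, a Frizzled receptor of crypt epithelium, was -4.45, -4.89, -4.47 and -4.48 in Group C, -5.23, -4.57, -5.17 and -4.90 in Group M and -4.33, -4.16, -4.96 and -5.74 in D9 to D12. The differences of Fzd5 were -0.39 (SE 0.21, adjusted p = 0.285) in Group M vs Group C and 0.48 (SE 0.22, adjusted p = 0.242) in Group D vs Group M, or 0.17 with D12. Ror2, a receptor of Wnt5a, was -2.76 to -2.36 in Group C, -2.57 to -2.10 in Group M and -2.20 to -1.91 in D9 to D11, so that D9 to D11 were above all rats of Group C. Group D minus Group C was 0.53 for Ror2 (SE 0.15, adjusted p = 0.633).

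Among target and stem cell genes, Myc, a growth regulator induced by β-catenin and by many other signals, was -0.99, -0.40, -0.74 and -0.88 in C1 to C4, 0.53, -0.20, 1.47 and 0.70 in M5 to M8, and -0.34, -0.60 and -0.50 in D9 to D11, with 1.54 in D12. Group M minus Group C was 1.38 (SE 0.29, adjusted p = 0.0904) and Group D minus Group M was -1.10 (SE 0.32, adjusted p = 0.110), or -0.60 with D12 (adjusted p = 0.627). C2 had the highest Myc of Group C, M6 the lowest of Group M and D12 the highest of Group D, which is also their place in the leukocyte sums, and the part of leukocytes in the values of Myc was not tested. Sox9, a target of the crypt base, was -1.50, -1.80, -1.68 and -1.58 in Group C, -2.03, -1.86, -1.85 and -1.95 in Group M and -1.53, -1.51 and -1.41 in D9 to D11, with -1.85 in D12. All rats of Group M were below those of Group C and below D9 to D11, and D12 equalled the highest rat of Group M to 2 decimals. Group M minus Group C was -0.28 (SE 0.09, adjusted p = 0.132). Group D minus Group M was 0.44 (SE 0.10, adjusted p = 0.0835), or 0.34 with D12 (adjusted p = 0.280). The farthest target on the low side in Group D vs Group M was Cd44, an adhesion receptor also carried by leukocytes and named after its value was seen. It stood at -1.35 (adjusted p = 0.0847), or -1.07 with D12 (adjusted p = 0.283).

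Olfm4, a stem cell marker of human crypts, was not well above background in any rat. Smoc2, a matricellular protein of Lgr5 cells, was 1.82 to 2.41 in Group C, 1.44 to 2.16 in Group M and 2.01 to 2.34 in D9 to D11, with 1.53 in D12, and Group D minus Group M was 0.34 (SE 0.20, adjusted p = 0.349), or 0.17 with D12. Ephb3, the partner of Ephb2 in cell positioning, was 1.65 to 2.28, 1.51 to 2.32 and 2.27 to 2.50 in the same groups, with 2.04 in D12, and Group D minus Group M was 0.49 (SE 0.20, adjusted p = 0.187). Efnb1, a ligand of these receptors, ran from -1.43 to -0.49 and gave 0.27 (SE 0.17, adjusted p = 0.388), or 0.08 with D12. Tcf7l2, the main TCF factor of the gut, was 1.77 to 2.13 in Group C, 1.74 to 2.37 in Group M and 1.86 to 2.22 in D9 to D11, with 1.47 in D12, and Group D minus Group M was -0.17 (SE 0.17, adjusted p = 0.608), or -0.31 with D12.

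Grem1, a BMP antagonist secreted by stromal cells around the crypt base, was 1.19, 2.37, 0.86 and 0.61 in C1 to C4, 2.56, 1.74, 2.87 and 2.60 in M5 to M8, and 1.74, 0.95 and 0.95 in D9 to D11, with 2.06 in D12. C2 was the highest of Group C, M6 the lowest of Group M and D12 the highest of Group D, as for the leukocyte sums, and the part of leukocytes was not tested here either. The difference was 1.19 (SE 0.39, adjusted p = 0.130) in Group M vs Group C. In Group D vs Group M it was -1.23 (SE 0.42, adjusted p = 0.142), or -1.02 with D12 (adjusted p = 0.357). Without M6 limma called 14 (15.1%) and 16 (17.2%) of the 93 pathway genes in these 2 comparisons, where it called 16.2% and 15% of all probes.

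**Figure D4:**
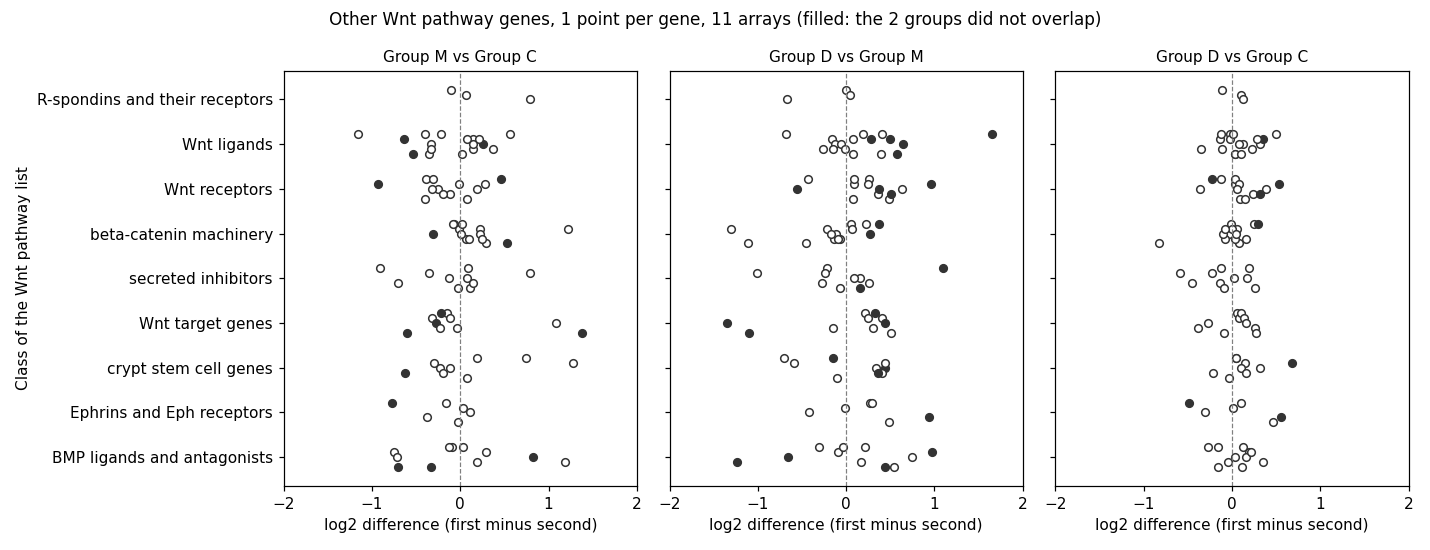
Log2 difference (horizontal axis, first group minus second, 11 arrays) of the 93 other genes of the Wnt pathway list in 9 classes (vertical axis), BMP genes included. There is 1 point per gene, filled where no rat of one group overlapped the other. Filled points lay above 0 for 19 genes and below for 6 in Group D vs Group M, and above for 5 and below for 11 in Group M vs Group C. The latter include Wnt10a and Tnfrsf19, which were not well above background on any of the 11 arrays. With D12 added (not drawn), 3 genes were higher and 2 lower without overlap in Group D vs Group M.

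The genes whose signal was most like that of Rspo1 over the 12 rats were sought among 13894 probes. These had a gene symbol and were well above background on every array. The closest were Dio1, a thyroid hormone deiodinase (Pearson r 0.919), Gzf1, a zinc finger protein (0.910), and Aldh1a1, a retinaldehyde dehydrogenase (0.910). Next came Dak, an older symbol of a triose kinase (0.908), and Aifm2, a suppressor of lipid peroxidation (0.906). Within groups, after the group means were taken away, r was 0.62 to 0.79 for these 5 genes. The 12 points share the group means, and these values are a description. Dio1 was -1.68, -3.36 and -2.72 on average in Groups C, M and D with D12, the order in which Rspo1 stood. For the brighter probe of Lgr5 the 5 closest genes had r from 0.851 to 0.885, led by Pip4k2b, a lipid kinase.

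Promoter sequence was examined for the TCF words CTTTGA and CTTTGT on both strands, in the 250 bases before and 50 bases after the start of each gene in RefSeq (GRCr8 build), a build other than that of the probes. The table held 6 members, and 1 of them, Axin2, carried a match, with 2 copies of CTTTGA. Of all 33469 promoters of this length 31.4% held at least 1 match and 7.03% at least 2. The 250 bases before the start of Axin2, a target with small mean differences, and of Rspo1, the ligand with the largest difference between Groups C and M, are shown, with the words in capitals.
Axin2 (GRCr8, chr10:94398535-94398784, plus strand): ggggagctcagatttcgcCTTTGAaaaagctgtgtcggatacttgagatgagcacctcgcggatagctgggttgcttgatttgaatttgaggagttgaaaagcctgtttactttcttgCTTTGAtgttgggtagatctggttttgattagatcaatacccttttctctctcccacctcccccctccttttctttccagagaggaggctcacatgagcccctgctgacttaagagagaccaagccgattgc
Rspo1 (GRCr8, chr5:142536040-142536289, plus strand): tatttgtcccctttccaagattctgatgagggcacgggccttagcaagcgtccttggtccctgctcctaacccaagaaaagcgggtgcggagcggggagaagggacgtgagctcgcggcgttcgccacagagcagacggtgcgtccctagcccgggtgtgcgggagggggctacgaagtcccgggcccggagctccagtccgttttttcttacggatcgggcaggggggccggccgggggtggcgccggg
The 2 words of Axin2 start at positions -232 and -132 from the gene start. The other members in the table, Rspo3, Ascl2, Wnt5a and Ephb2, held none of these letters, and Rspo2, Lgr5, Sfrp1 and Znrf3 were not looked at.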

How the data were processed

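Total RNA of colon (100 ng per rat) was labelled with Cy3 and hybridised to Agilent Whole Rat Genome arrays, 1 array per rat. The deposited intensity of each spot (processed signal, linear) was made by Agilent Feature Extraction 10.5.1.1 through background subtraction and outlier rejection, per the file headers. The authors' deposited matrix holds log2 values with 1 distribution for all arrays (column medians 7.283 to 7.284) and was used as an alternative. Its scale and direction follow each array (r of at least 0.9997).

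Here log2 of the intensity minus the log2 75th percentile of the array was used, with control and outlier spots left out and spots of a probe averaged. Arrays limit precision by their number, and rats are the replicates. The comparisons used limma 3.58.1 (R 4.3.3), in a model of 11 arrays that held all 3 groups, with moderated variances (lmFit, eBayes), Benjamini-Hochberg adjustment over 30367 probes and a threshold of 0.05. Pathway and marker genes were measured by the brightest probe. The members and lists were chosen with earlier results of these data known. Named genes were every member, 17 pathway genes fixed by name, of which 15 were on the arrays, and the 5 genes most like Rspo1 and Lgr5. The alternatives were all 12 arrays, normexp correction (offset 50), quantile or median scaling, the authors' matrix, outlier spots kept, only bright probes, the replicate number as a block, array weights, 2 groups per fit, other thresholds and each rat left out in turn, and, chosen after seeing the data, C2, M6 and D12 left out. Scripts were tested on simulated data. Sequences came from the array files and from RefSeq (GRCr8), read with Python 3.11.15, and figures were drawn with matplotlib 3.10.9. The computation of the Rosetta Resolver system was not repeated.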

Additional observations from a re-analysis of the deposited data

Results flagged for a closer look

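Of 75 groups of 4 rats tested (10 member probes and 15 pathway genes in 3 groups, D12 included), 7 had 1 rat far from the other 3, by a gap to the nearest rat past the Dixon critical value for its share of the range of the group. Chance alone gives about 1 such group in 20. D12 was far from D9 to D11 for Ascl2 (lowest, gap 0.853 of the range), Wnt2b (lowest, 0.861) and Myc (highest, 0.879). M5 was far from the rest of Group M for Wnt5a (lowest, 0.867), Rspo4 (highest and alone well above background, 0.921) and Tcf7l2 (lowest, 0.898). C2 was far from the rest of Group C for Fzd5 (lowest, 0.926).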

How the results depend on the processing

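In Group M vs Group C, whose values led to the choice of the members, a count of members past the threshold tests nothing and is given as a description. It was 1 (Rspo1), and shares of all probes passing are given in brackets (here 0.207%). It became 0 with all 12 arrays (0.0395%), the authors' matrix (0.109%), the replicate block (0.00329%) and only the 2 compared groups in the fit (0.079%). It became 2 at an unadjusted p of at most 0.01 (8.01%) and without C2, M6 and D12 (21.1%), and 3 with array weights (28%). Leaving out each rat in turn gave 0 to 1, with 1 without M6 (16.2%) or without M8 (0.0329%). In Group D vs Group M the count of 0 members (0.161%) became 1 with array weights (22.6%), by the criterion of the methods (2.65%) and at the unadjusted p (7.82%). It was also 1 without C2, M6 and D12 (17.5%) and, among single rats, without M6 (15%). In Group D vs Group C the count of 0 (0.00659%) became 1 at the unadjusted p (1.4%). For the 93 pathway genes the count of 0 in Group M vs Group C became 28 (30.1%) with array weights, 23 (24.7%) without C2, M6 and D12, 3 (3.23%) by the criterion of the methods and 10 (10.8%) at the unadjusted p, beside 28%, 21.1%, 2.33% and 8.01% of all probes, with 0 to 14 over single rats left out. In Group D vs Group M it became 27 (29%), 21 (22.6%), 2 (2.15%) and 10 (10.8%) under the same settings, beside 22.6%, 17.5%, 2.65% and 7.82% of all probes, with 0 to 16 over single rats, and in Group D vs Group C 1 (1.08%) at the unadjusted p, beside 1.4%. The cause was not tested.

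Over all probes, the 63, 49 and 2 calls of the 3 comparisons became 8489, 6870 and 2 with array weights, 6406, 5323 and 0 without C2, M6 and D12, 4913, 4543 and 3 without M6, 137, 330 and 3 with normexp, 110, 295 and 2 with only the 21574 bright probes, 12, 4 and 2 with all 12 arrays, 24, 12 and 0 with 2 groups per fit, 33, 64 and 6 in the authors' matrix, 49, 59 and 0 after quantile scaling, 43, 46 and 2 after median scaling and 1, 1 and 0 with the replicate block. The replicate numbers did not pair the rats, since same-numbered rats of different groups correlated at -0.56 to 0.13 in their deviations (median -0.07, 1 of 10 pairs over 0.1) and 1 of 11 rats correlated best with its own number. With the block, Rspo1 in Group D vs Group M was 0.67 and Ascl2 1.14.

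Signs turned for small differences. Lgr5 by probe A_64_P003572 in Group D vs Group C was 0.0062 with normexp, 0.0649 after quantile scaling, 0.0441 after median scaling, 0.0676 in the matrix, 0.0885 with the block, 0.159 with array weights and 0.0791 without C2, M6 and D12, and -0.29 to 0.46 over single rats left out. In Group D vs Group M it was -0.73 to 0.0147 over single rats. Probe A_64_P102796 was 0.0236 with normexp in Group D vs Group M, -0.57 to 0.15 over single rats, -0.0888 with all 12 arrays in Group D vs Group C and -0.19 to 0.53 over single rats. Wnt5a in Group D vs Group M was -0.13 with all 12 arrays, and Sfrp1 in Group D vs Group C -0.01004 with the block and -0.0732 to 0.25 over single rats. Over single rats Axin2 was -0.17 to 0.0247 and Ephb2 -0.000418 to 0.29 in Group D vs Group C. In 566 other cases members kept their direction and side of the threshold, or, in Group M vs Group C, stayed within 1 SD. Rspo2, never well above background, was left out of these differences. Rspo1 and Lgr5 were the dimmest other members, with overlapping levels, and normexp moved Rspo1 in Group M vs Group C to -0.51.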
